A study of Homo sapiens with 6 samples.

Results

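The loci described here were those of the first 30 Mb of the short arm of chromosome 1 (1p), in 6 human neuroblastoma cell lines. A locus is a row of the deposited table of normalized abundance, with a position on hg19 and 1 or more gene names. Rows were taken where the listed end lay below 30 Mb on chromosome 1 and a gene name was given. Rows named only by clone numbers, rows of SRM, and rows of ribosomal protein, respiratory chain, histone and potassium channel genes were set aside by the same rule. This left 276 of the 16223 loci with a gene name. Of these, 236 reached 1 FPKM (a level scaled to the length of the transcript and to the library) in at least 2 lines and were tested, out of 12870 such loci in the whole table. The rule for the 276 loci used no expression values, but it was chosen with earlier results of these data known.

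Loss of distal 1p is a common lesion of neuroblastoma, a tumour of the developing sympathetic nervous system, and it often accompanies amplification of the oncogene MYCN. The region holds several genes that have been studied as suppressors of this tumour, among them the motor protein gene KIF1B, the transcription factor genes CAMTA1 and CASZ1, and the microRNA gene MIR34A. The number of gene copies was not measured here, so that the levels below are RNA levels only, and a lower level cannot be told apart from fewer cells that express a gene.

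The study compared the MYCN-amplified lines BE(2)-C, CHP134, Kelly and SK-N-DZ (4) with the MYCN-non-amplified lines SK-N-AS and SY5Y (2). The labels give no treatment and no further genetic change. Each line had 1 library, so that p-values measure the spread between cell lines and a single line has no replicate. The medium was RPMI with added glutamine for CHP134 and Kelly, and DMEM for the remaining lines. By the methods, the DMEM of SK-N-DZ and SK-N-AS also held non-essential amino acids. The RNA was depleted of ribosomal RNA, converted without poly-A selection by a kit that does not mark strand, and the 6 libraries shared a sequencing lane. Rows that merge a gene with a small RNA gene may hold reads of both. The reads of overlapping genes on opposite strands can therefore not be told apart, and 84 of the 276 loci share their listed span with another row.

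The sequencing depth is not known from FPKM values, and no counting error was computed. The values summed to between 777111 in CHP134 and 1305116 in SK-N-AS, and the members' part of this sum was 0.43% to 1.05%. All 8 neuroblastoma markers were listed, with a summed level of 261.5 FPKM in SK-N-AS to 1746 FPKM in Kelly. HAND2 was at 65.8 to 183.5 FPKM in the 6 lines, but the noradrenaline synthesis enzymes were uneven: DBH was at 0.0960 FPKM in CHP134 and 0.347 FPKM in SK-N-AS, and TH was below 1 FPKM in every line except Kelly (72.5 FPKM). All 6 mesenchymal markers were listed, and their summed level was 9.98 to 120 FPKM in the MYCN-amplified lines against 424 and 975 FPKM in SY5Y and SK-N-AS, of which VIM made up 385.6 and 612 FPKM. Of 4 leukocyte markers only PTPRC was listed, and it reached 108 FPKM in SK-N-AS, with at most 0.0658 FPKM elsewhere. The part of these differences in the results below was not tested, except where a value is given.

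Promoters of 5 loci on which the results turn are shown first, each as the 300 bases around the start of the gene in RefSeq (GRCh38.p14). UBE4B and KIF1B lie on the 2 sides of the place where the levels of CHP134 changed, DFFA and STMN1 are loci with high levels in CHP134, and FUCA1 is the locus called lower in MYCN-amplified lines. Capitals mark CACGTG, the E-box that proteins of the MYC family bind, which reads the same on both strands.
UBE4B promoter (chr1:10032708-10033007, plus strand): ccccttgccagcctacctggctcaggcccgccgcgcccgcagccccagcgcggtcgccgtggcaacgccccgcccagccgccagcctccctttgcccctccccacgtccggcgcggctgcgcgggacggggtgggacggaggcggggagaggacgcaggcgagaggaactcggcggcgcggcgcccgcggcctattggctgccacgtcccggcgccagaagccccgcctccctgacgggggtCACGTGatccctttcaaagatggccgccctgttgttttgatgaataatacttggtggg
KIF1B promoter (chr1:10210320-10210619, plus strand): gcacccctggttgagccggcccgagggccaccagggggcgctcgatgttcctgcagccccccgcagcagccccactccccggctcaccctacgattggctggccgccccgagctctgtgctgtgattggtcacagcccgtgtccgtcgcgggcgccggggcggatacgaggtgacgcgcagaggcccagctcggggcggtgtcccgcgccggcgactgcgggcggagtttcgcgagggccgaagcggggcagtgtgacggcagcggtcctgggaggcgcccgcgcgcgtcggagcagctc
DFFA promoter (chr1:10472480-10472779, minus strand): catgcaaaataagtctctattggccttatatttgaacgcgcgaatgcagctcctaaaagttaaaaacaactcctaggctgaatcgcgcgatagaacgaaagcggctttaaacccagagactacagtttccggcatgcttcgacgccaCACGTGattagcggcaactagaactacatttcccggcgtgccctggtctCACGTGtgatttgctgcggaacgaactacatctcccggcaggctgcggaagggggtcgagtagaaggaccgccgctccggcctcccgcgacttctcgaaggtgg
STMN1 promoter (chr1:25906370-25906669, minus strand): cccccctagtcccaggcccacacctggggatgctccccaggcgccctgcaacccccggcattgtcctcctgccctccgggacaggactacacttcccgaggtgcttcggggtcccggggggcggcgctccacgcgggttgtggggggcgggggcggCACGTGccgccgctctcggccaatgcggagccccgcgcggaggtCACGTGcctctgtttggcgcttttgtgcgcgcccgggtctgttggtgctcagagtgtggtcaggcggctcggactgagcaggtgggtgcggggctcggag
FUCA1 promoter (chr1:23868241-23868540, minus strand): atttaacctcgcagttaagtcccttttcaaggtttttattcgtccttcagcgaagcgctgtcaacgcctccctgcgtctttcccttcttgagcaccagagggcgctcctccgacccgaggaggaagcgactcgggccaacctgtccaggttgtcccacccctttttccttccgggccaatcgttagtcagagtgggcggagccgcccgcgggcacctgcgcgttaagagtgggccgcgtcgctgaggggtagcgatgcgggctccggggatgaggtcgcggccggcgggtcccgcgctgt

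The E-box stood once in the UBE4B window, in 2 places in each of the DFFA and STMN1 windows, and not in those of KIF1B and FUCA1. The E-box was also absent from the windows, not shown, of PGD, KDM1A, MTOR, E2F2 and ARID1A, which were likewise highest in CHP134. It was found in 26 of the 231 promoters matched to gene names of the members (11.3%), beside 2548 of all 35116 promoters of the table (7.26%). The share of the members counts a single promoter per gene, while that of all promoters counts every one listed, so that the shares are of unlike sets. These are matches of letters and not measured binding. MIR34A, a microRNA gene of the region, gives miR-34a-5p, shown with its seed (bases 2 to 8) in capitals.
hsa-miR-34a-5p: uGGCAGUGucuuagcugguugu

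Of the 6 lines, CHP134 had the median over the 1p loci farthest above the others. At each locus, the log2(FPKM + 0.5) of a line was set against the median of the other 5 lines. The median of this difference over the 236 loci was 0.42 in CHP134, against 0.10 over all 12870 tested loci. CHP134 had the highest level of the 6 lines at 93 loci (39.4%), a position it held at 22.1% of all loci, and it lay at or above 1 on the log2 scale at 63 loci (26.7%), against 10.2% of all loci. The displacement was not particular to 1p: on the distal long arm of chromosome 17, CHP134 had a median of 0.54 over 370 loci and was the highest line at 47.8% of them. On the rest of chromosome 1 its median was 0.18 over 460 loci of 30 to 120 Mb and -0.22 over 588 loci of the long arm. With 1 library per line, these differences between lines carry no test. In the other lines the loci at or above 1 numbered 12 in BE(2)-C (5.08%, against 7.25% of all loci), 24 in Kelly (10.2%, against 8.2%), 8 in SK-N-DZ (3.39%, against 5.23%), 32 in SY5Y (13.6%, against 11.1%) and 35 in SK-N-AS (14.8%, against 13.5%). Those at or below -1 numbered 34 in BE(2)-C (14.4%, against 10.3%), 23 in CHP134 (9.75%, against 9.51%), 19 in Kelly (8.05%, against 8.14%), 30 in SK-N-DZ (12.7%, against 13.0%), 7 in SY5Y (2.97%, against 5.55%) and 17 in SK-N-AS (7.2%, against 10.3%). The count of loci at or above 1 was thus largest in CHP134, and that of loci at or below -1 in BE(2)-C.

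The median of CHP134 combined opposite displacements. In the first 10 Mb, CHP134 was below the other lines, at 65 of 73 loci, with a median difference of -0.45. Between 10 and 30 Mb it was below them at only 26 of 163 loci, with a median difference of 0.76. CHP134 was the lowest line at 27 of the 73 loci of the first 10 Mb, against 13.2% of all loci. These were 24 of the 50 loci of 0 to 5 Mb (48.0%) and 3 of the 23 loci of 5 to 10 Mb (13.0%), the second share being near that of all loci. It was the highest line at 91 of the 163 loci beyond 10 Mb (55.8%, against 22.1%). The later stretch exceeded the first by 1.21 on the log2 scale in CHP134, whereas the same value lay between -0.60 and 0.27 in the other 5 lines. The division at 10 Mb was chosen after the values were seen.

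**Figure D1:**
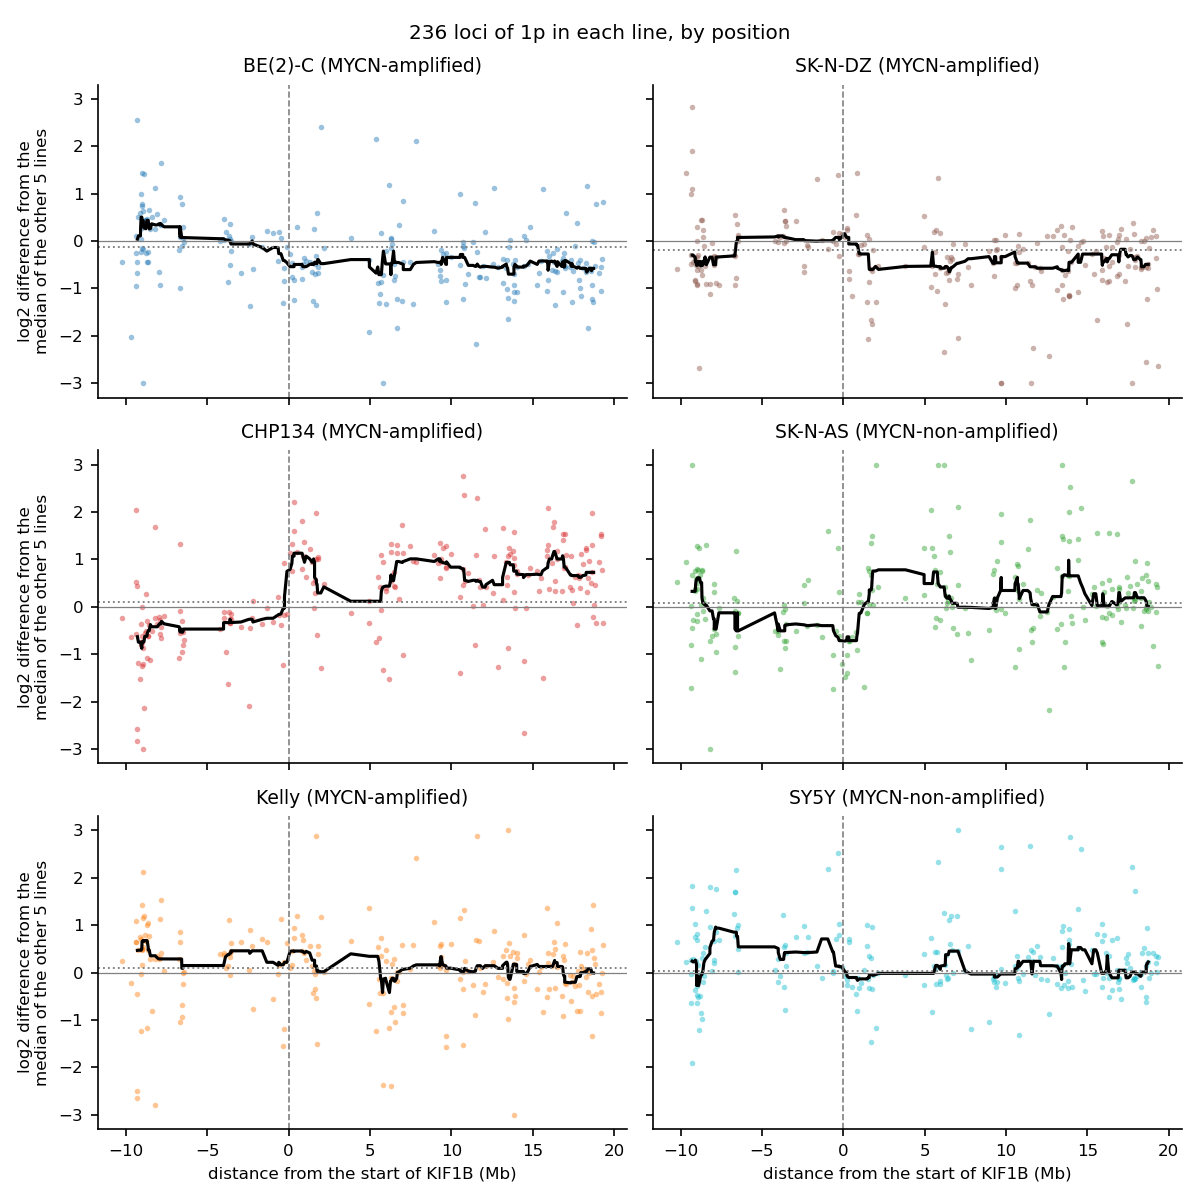
Log2 difference of each of the 236 tested loci from the median of the other 5 lines (y axis, drawn at ±3 where larger), by distance from the start of KIF1B in Mb (x axis, with the end of the arm to the left), in 1 panel per cell line. Black lines are running medians over 15 loci, dotted lines the median of all 12870 tested loci, and dashed lines the start of KIF1B, at which the running median of CHP134 passes from below 0 to near 1.

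The 5 Mb bins showed the same division. The bin medians of CHP134 were -0.57 and -0.32 in the first 10 Mb, and 0.93, 0.82, 0.65 and 0.79 in the 4 bins after them. Among 244 bins of 5 Mb across the genome with at least 20 tested loci, the bin of 0 to 5 Mb ranked as the 8th lowest of CHP134 and that of 10 to 15 Mb as the 3rd highest. The loci of the same stretch that the rule had set aside, which are not members, gave medians of -0.45 over 12 loci of the first 10 Mb and 0.54 over 30 loci of 10 to 30 Mb in CHP134. CHP134 was below the other lines at only 7 of these 12 loci and at 7 of these 30. Its median was -0.50 over the 9 set-aside loci of 0 to 5 Mb and 0.02 over the 3 of 5 to 10 Mb.

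**Figure D2:**
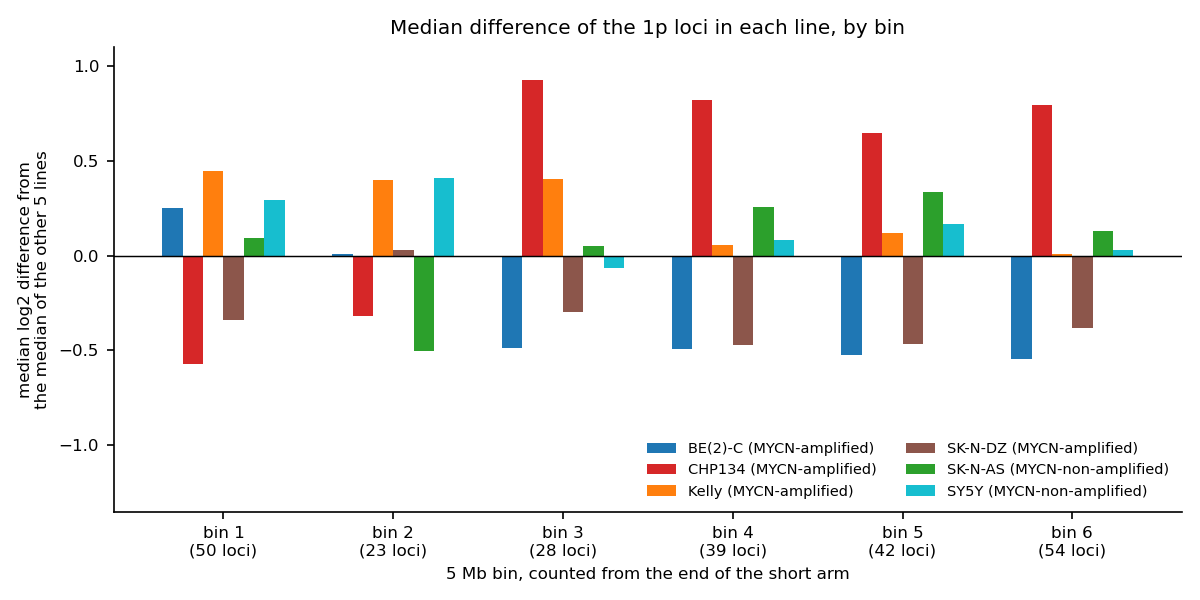
Median log2 difference from the median of the other 5 lines (y axis) over the tested loci of each 5 Mb bin (x axis, counted from the end of the short arm), with 1 bar per cell line. CHP134 is at -0.57 and -0.32 in the first bins and between 0.65 and 0.93 in the others, while BE(2)-C is near -0.5 in bins 3 to 6.

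The change in CHP134 was placed between 2 neighbouring tested loci. This border and the sets of 20 loci on its sides were chosen after the values were seen, so that the counts for them describe the choice and support nothing further. UBE4B (chr1:10092889-10241298), which encodes a ubiquitin chain assembly factor and is listed together with a pseudogene and a U6 gene, had 8.43 FPKM in CHP134, against 8.61 in BE(2)-C, 13.6 in Kelly, 9.64 in SK-N-DZ, 9.42 in SY5Y and 3.79 in SK-N-AS. KIF1B (chr1:10270862-10441661), which encodes a kinesin that carries mitochondria and synaptic vesicle precursors along axons, had 24.5 FPKM in CHP134, against 9.51 in BE(2)-C, 11.8 in Kelly, 11.6 in SK-N-DZ, 10.9 in SY5Y and 3.84 in SK-N-AS. UBE4B in CHP134 lay within the range of the other lines, and KIF1B above all of them. The listed end of UBE4B and start of KIF1B are 29.6 kb apart.

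The loci that followed KIF1B were also high in CHP134. PGD, which encodes an enzyme of the pentose phosphate pathway, had 151 FPKM in CHP134 and 27.2 to 82.2 FPKM in the other 5 lines. DFFA, the inhibitor and chaperone of the nuclease that cuts DNA in apoptosis, had 76.2 FPKM in CHP134 and 10.99 to 27.2 FPKM in the others. PEX14, a docking protein of peroxisomal import, had 15.7 FPKM in CHP134 and 4.18 to 9.77 FPKM elsewhere, but its row is merged with a signal recognition particle RNA and shares the listed span of DFFA. MTOR, the kinase that couples nutrients to growth, in a row merged with a small nucleolar RNA, had 22.4 FPKM in CHP134 and 7.80 to 11.3 FPKM in the other lines. Of the 20 tested loci from KIF1B on, CHP134 was above the other lines at 18 and the highest line at 13, whereas of the 20 loci up to UBE4B it was below them at 17. The exceptions near the border were CASZ1, at 2.21 FPKM in CHP134 and 2.28 FPKM in Kelly, and AGTRAP, at 14.4 FPKM in CHP134 and 3.13 to 25.6 FPKM in the others, the second chosen after its values were seen.

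**Figure D3:**
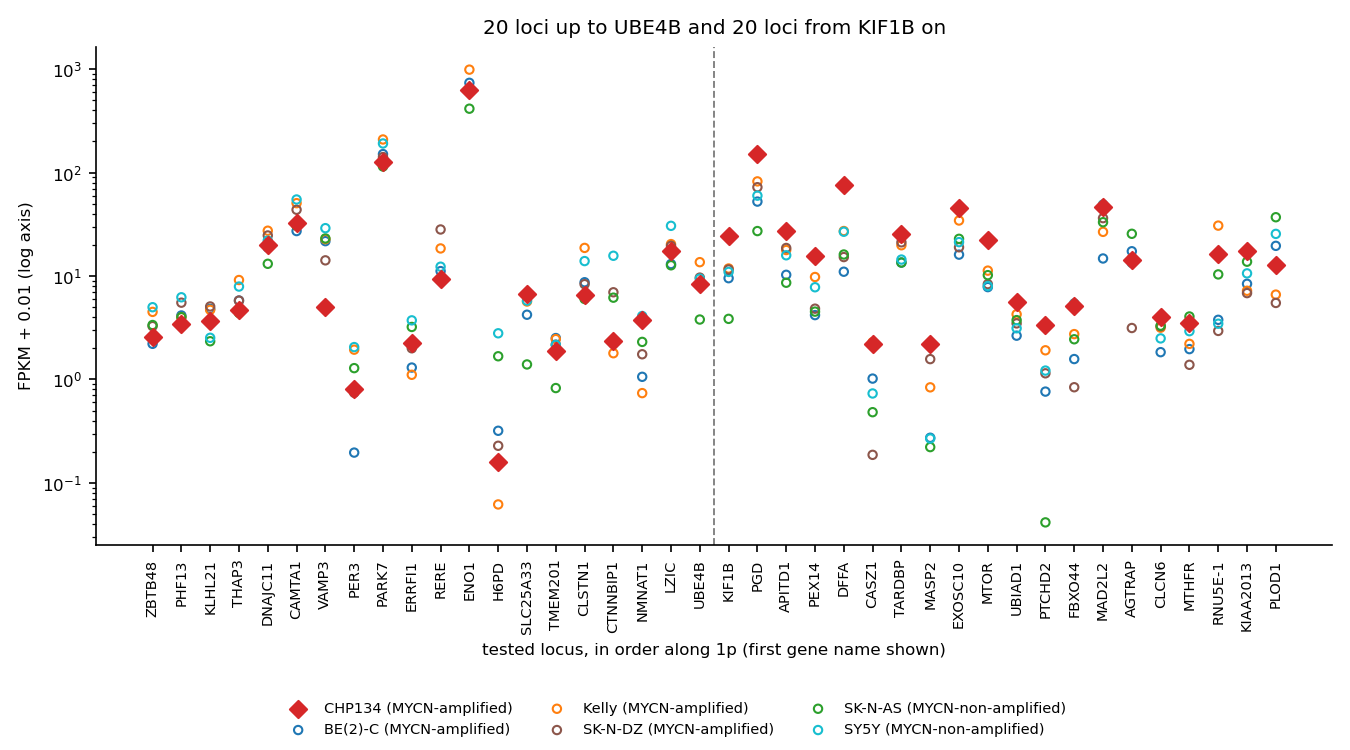
FPKM + 0.01 on a log axis (y axis) of the 20 tested loci up to UBE4B and the 20 from KIF1B on, in order along 1p (x axis), with filled diamonds for CHP134 and open circles for the other 5 lines. CHP134 lies below the median of the other lines at 17 loci to the left of the dashed line and above every other line at 13 loci to the right, KIF1B among them (24.5 FPKM).

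Beyond the border, abundant loci of several functions were highest in CHP134. STMN1, which encodes stathmin, a protein that destabilizes microtubules, had 1427 FPKM in CHP134 and 349 to 664 FPKM in the other lines. KDM1A, a histone lysine demethylase, had 272 FPKM in CHP134 and 55.1 to 110 FPKM in the others. ATPIF1, the inhibitor of the mitochondrial ATP synthase, had 348 FPKM in CHP134 and 101 to 167 FPKM elsewhere. HMGN2 and ID3, a nucleosome-binding protein and an inhibitor of helix-loop-helix factors, had 157 and 148 FPKM in CHP134, with at most 112 and 86.1 FPKM in another line. Other abundant loci were not highest in CHP134. The row merging RCC1 with SNHG3 had 1007 FPKM in Kelly and 759 in CHP134, and the RNU11 row 689 and 255 FPKM. The row merging DDOST with PINK1-AS had 149.5 FPKM in SK-N-AS and 110.6 in CHP134. The farthest above the other lines were KIF17, a kinesin of dendrites, at 5.25 FPKM against a median of 0.352, SH2D5 at 6.86 against 0.939, and DFFA at 76.2 against 16.1 FPKM.

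In the first 10 Mb the low levels of CHP134 reached many functions as well. VAMP3, a vesicle fusion protein, had 4.96 FPKM in CHP134 and 14.2 to 29.0 FPKM in the other lines. SDF4, a calcium-binding protein of the Golgi, had 10.6 FPKM in CHP134 and 17.5 to 41.1 FPKM elsewhere. GNB1, a G protein beta subunit, had 20.8 FPKM in CHP134 and 31.5 to 55.0 FPKM in the others, and the locus was among those lowest in CHP134. MXRA8, a cell adhesion protein, was at 0.276 FPKM in CHP134 and at 0.292 FPKM in BE(2)-C, with 7.05 to 32.1 FPKM in the other 4 lines. However, CHP134 was the highest line at 2 of the 73 loci of this stretch. SAMD11 had 24.0 FPKM in CHP134, against 2.33 to 11.4 FPKM in the others, and SLC25A33 had 6.62, against 1.39 to 6.53 FPKM.

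SK-N-AS showed a shorter stretch of low levels. It was the lowest line at 14 of the 23 loci of 5 to 10 Mb (60.9%, against 16.9% of all loci), with a bin median of -0.50, and its bin medians outside this stretch were 0.05 to 0.34. The stretch passed the border of CHP134, since KIF1B and PGD were also lowest in SK-N-AS, at 3.84 and 27.2 FPKM. SLC25A33, a mitochondrial carrier of pyrimidine nucleotides, had 1.39 FPKM in SK-N-AS and 4.21 to 6.62 FPKM in the other lines. ACOT7, an acyl-CoA thioesterase of neurons, had 10.8 FPKM in SK-N-AS, 14.0 FPKM in CHP134 and 26.0 to 29.6 FPKM in the other 4 lines, and was chosen after its values were seen. Not all loci of the stretch were low: CTNNBIP1, an inhibitor of beta-catenin, had 6.16 FPKM in SK-N-AS, against 1.78 to 15.7 FPKM in the others.

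BE(2)-C was low from about 10 Mb on. Its median difference was 0.07 over the 73 loci of the first 10 Mb, a value that turned to -0.0800 without CHP134, and -0.53 over the 163 loci of 10 to 30 Mb, and it was the lowest line at 76 of these 163 loci (46.6%, against 22.0% of all loci). The 4 bin medians of this stretch lay between -0.54 and -0.49. On chromosome 1 from 30 to 120 Mb its median was -0.46 over 460 loci, and on the long arm it was -0.12 over 588 loci. MAD2L2, a subunit of the shieldin and DNA polymerase zeta complexes, had 14.8 FPKM in BE(2)-C and 26.7 to 49.1 FPKM in the other lines. NBPF3, a member of a family of near-identical copies and therefore uncertain, had 0.793 FPKM in BE(2)-C, 0.190 in SK-N-DZ and 3.66 to 8.41 FPKM in the other 4 lines. Above the other lines in BE(2)-C were ACAP3, a GTPase-activating protein for ARF6, at 22.4 FPKM against 5.69 to 11.4 FPKM, and MFAP2, a microfibril protein, which at 7.18 FPKM was however below SY5Y and SK-N-AS.

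SK-N-DZ was also below the other lines, by a median of -0.34 over the 236 loci, and it was the highest line at 4 of them (1.69%, against 9.58% of all loci). However, it was the lowest line at 54 of them (22.9%), near its share of all loci (23.7%). This line was at -0.19 over all tested loci, and further down on the long arm of chromosome 1, at -0.78. Its farthest loci were IFI6, an interferon-induced mitochondrial protein, at 0.0616 FPKM in SK-N-DZ and 4.65 to 42.9 FPKM in the others, and NBL1, a secreted antagonist of bone morphogenetic proteins. NBL1 had 2 rows with the same listed span, at 0.960 and 0.658 FPKM in SK-N-DZ, which without strand may hold the same reads. RERE, a nuclear receptor corepressor whose row also holds SNORA77 and a Y RNA, was higher in SK-N-DZ, at 28.2 FPKM against 9.32 to 18.5 FPKM in the other lines.

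Kelly and SY5Y lay above the other lines in the first 10 Mb. The median difference of these 73 loci was 0.41 in Kelly and 0.31 in SY5Y, and each of the 2 lines was the highest at 25 loci. SY5Y was the lowest line at 0 of the 73 loci, while it was the lowest at 11.9% of all loci. Between 10 and 30 Mb the medians were 0.09 in Kelly and 0.06 in SY5Y, close to the 0.10 and 0.04 of all loci. TCEA3, an elongation factor of RNA polymerase II, had 11.1 FPKM in Kelly, 6.52 in SK-N-AS and at most 0.863 FPKM in the other 4 lines.

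Neighbouring loci had the same highest line in 75 of 203 pairs within the region (36.9%), beside 27.4% of 10174 pairs of all other tested loci. They had the same lowest line in 68 pairs (33.5%), beside 29.4%. Pairs were adjacent by position, with listed spans that were not the same, and no test was made of these shares, since neighbouring pairs have a locus in common. Such shares rise where a line is often the extreme one, and this was not adjusted for. CHP134 was the highest line at 39.4% of the members, against 22.1% of all loci. BE(2)-C was the lowest at 35.6%, against 22.0%.

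The genes studied as candidate suppressors of neuroblastoma at 1p36 were taken from a list of 30 names, 23 of which had a member locus. CENPS, also on the list, is the current name of APITD1, whose row merges it with CORT and is among the 23. CHD5, RUNX3, AJAP1, PRDM16, EXTL1 and SLC45A1 were not analysed here. Of the 22 loci of this list that were tested, 8 lay in the first 10 Mb, where CHP134 was the lowest line at 3, and 14 lay beyond, where CHP134 was the highest line at 6. The list had a median difference of 0.23 in CHP134, -0.53 in BE(2)-C and 0.42 in SY5Y.

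Among the transcription factors of this list, CAMTA1, a calmodulin-binding factor whose row also holds a U1 small nuclear RNA, had 27.2 FPKM in BE(2)-C, 32.3 in CHP134, 50.6 in Kelly, 43.7 in SK-N-DZ, 54.9 in SY5Y and 30.6 in SK-N-AS. The MYCN-amplified lines thus lay within the range of the MYCN-non-amplified ones, apart from BE(2)-C, which was lowest. CASZ1, a zinc finger factor of neural and cardiac development, had 1.01 FPKM in BE(2)-C, 2.21 in CHP134, 2.28 in Kelly, 0.177 in SK-N-DZ, 0.722 in SY5Y and 0.472 in SK-N-AS. TP73, a transcription factor of neural development and cell death, had 0.884, 1.309, 0.174 and 0.225 FPKM in BE(2)-C, CHP134, Kelly and SK-N-DZ, against 1.87 FPKM in SY5Y and 0.0304 FPKM in SK-N-AS. The levels of both CASZ1 and TP73 overlapped between the groups. ARID1A, a subunit of the SWI/SNF remodelling complex in a row merged with a signal recognition particle RNA, had 3.89 to 7.17 FPKM in the MYCN-amplified lines and 5.83 and 5.70 FPKM in SY5Y and SK-N-AS.

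**Figure D4:**
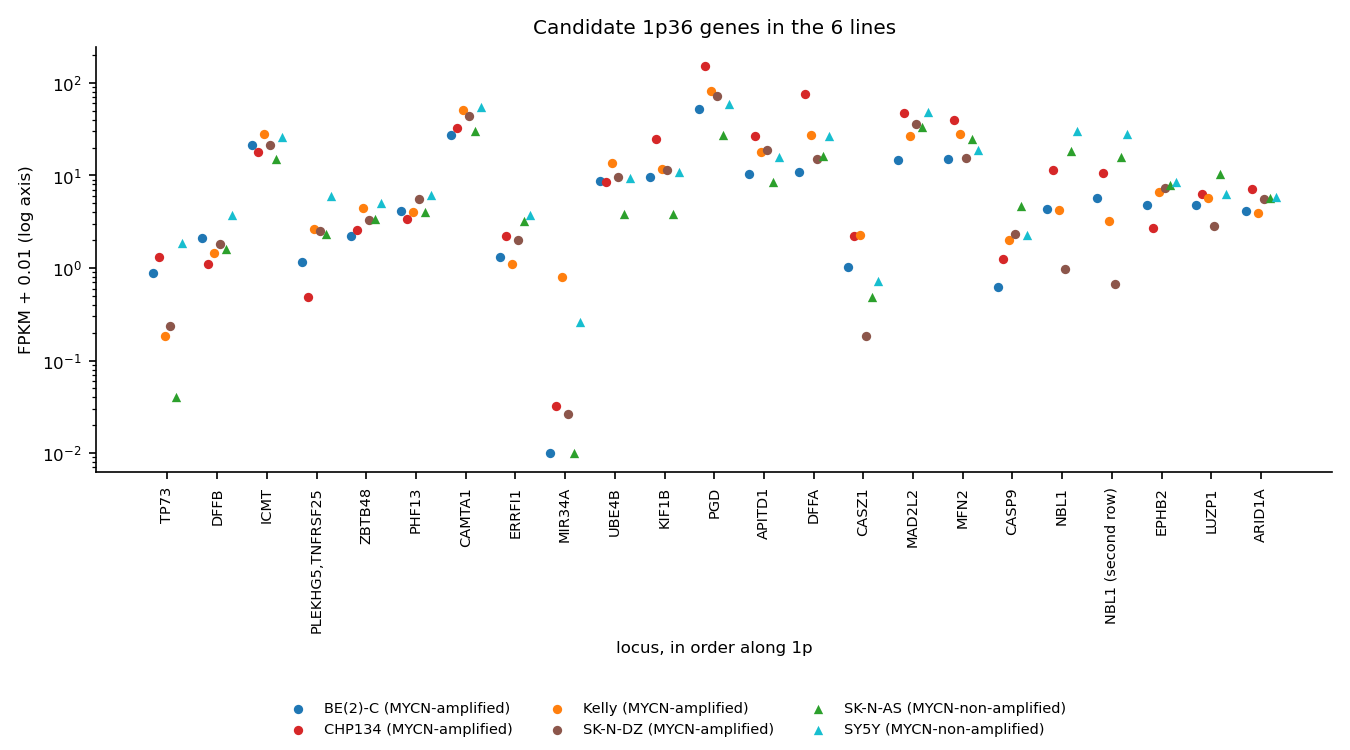
FPKM + 0.01 on a log axis (y axis) of the 23 loci of the candidate list, in order along 1p (x axis), with circles for the MYCN-amplified lines and triangles for the MYCN-non-amplified lines. From KIF1B to DFFA the red circle of CHP134 is the highest point, and MIR34A is at the bottom, with 0.797 FPKM in Kelly.

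Genes of cell death and survival differed in which line was high. CASP9, the initiator caspase of the mitochondrial pathway, had 0.607 FPKM in BE(2)-C, 1.24 in CHP134, 1.99 in Kelly and 2.33 in SK-N-DZ, against 2.24 in SY5Y and 4.70 in SK-N-AS. DFFB, the nuclease that DFFA holds in check, lies before the border and had 1.095 FPKM in CHP134, the lowest value, with 1.44 to 3.74 FPKM in the other lines. DFFA and DFFB, whose proteins form a complex, thus had their highest and their lowest level of the 6 lines in CHP134. The row that merges PLEKHG5 with the death receptor gene TNFRSF25 had 0.479 FPKM in CHP134 and 6.04 FPKM in SY5Y. MFN2, a mitochondrial fusion protein, had 40.1 FPKM in CHP134 and 15.1 to 28.3 FPKM in the other lines.

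The MIR34A row (chr1:9209308-9211836) did not reach the minimum and was not tested. It had 0.797 FPKM in Kelly and 0.251 FPKM in SY5Y, was listed at 0 in BE(2)-C and SK-N-AS, and had 0.0220 and 0.0165 FPKM in CHP134 and SK-N-DZ. The row reports the longer transcript, and the mature microRNA shown above was not measured by these libraries.

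The remaining lists grouped the members by function, and several genes are on more than 1 list. The RNA processing and translation list was the most uniform beyond 10 Mb: of 17 tested loci there, 15 were highest in CHP134 and 14 lowest in BE(2)-C. HNRNPR, an RNA-binding protein of messenger RNA processing, had 160 FPKM in CHP134, 69.8 in BE(2)-C and 80.9 to 116 FPKM in the other lines. SRSF10, a splicing factor, had 90.4 FPKM in CHP134, 46.9 in BE(2)-C and 54.3 to 69.5 FPKM in the others. The RCC1 and RNU11 rows given above, the most abundant of this list, were highest in Kelly instead. Of 21 loci of cytoskeleton and neuronal genes beyond 10 Mb, 15 were highest in CHP134, as were 12 of 19 chromatin and transcription regulators and 9 of 11 loci of cell cycle, mitosis and DNA repair. The counts were 8 of 17 for energy, redox and intermediary metabolism, 5 of 10 for ubiquitin and proteolysis, 4 of 10 for mTOR, PI3K and growth signalling, and 2 of 6 for apoptosis and TNF receptors, all beside the 55.8% of all members beyond 10 Mb.

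The list of extracellular matrix and vascular genes differed, with 0 of its 8 loci beyond 10 Mb highest in CHP134. Its median difference was between -0.84 and -0.59 in the 4 MYCN-amplified lines, against 0.96 in SY5Y and 1.24 in SK-N-AS. PLOD1, a lysyl hydroxylase of collagen, had 19.6 FPKM in BE(2)-C, 12.9 in CHP134, 6.60 in Kelly and 5.48 in SK-N-DZ, against 25.5 in SY5Y and 36.99 in SK-N-AS. MFAP2 had 7.18, 3.28, 3.78 and 1.36 FPKM in the same MYCN-amplified lines, against 36.3 FPKM in SY5Y and 18.03 FPKM in SK-N-AS. Both loci were higher in each MYCN-non-amplified line than in any MYCN-amplified line. The summed mesenchymal markers given above moved with this list, and their part in it was not tested. Of the 6 markers, 4 (VIM, COL1A1, COL3A1 and YAP1) were lower in every MYCN-amplified line than in both MYCN-non-amplified lines. FN1 was highest in SK-N-DZ, at 19.2 FPKM, against 6.38 FPKM in SY5Y and 10.7 FPKM in SK-N-AS. PRRX1 had at most 1.95 FPKM in the MYCN-amplified lines, against 0.00327 FPKM in SY5Y and 45.7 FPKM in SK-N-AS.

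The 3 tested loci of the interferon and antigen response list went with SK-N-AS. IFI6 reached 42.9 FPKM in SK-N-AS, beside 31.7 FPKM in SY5Y, and ISG15, a ubiquitin-like interferon-induced protein, had 15.3 FPKM in SK-N-AS. In the other lines ISG15 was at 5.10 FPKM in BE(2)-C, 3.07 in SK-N-DZ, 0.458 in SY5Y and 0.0707 in Kelly, and listed at 0 in CHP134. TNFRSF1B, a receptor for tumour necrosis factor, had 4.44 FPKM in SK-N-AS and 2.36 FPKM in BE(2)-C, with at most 0.726 FPKM in the other lines. The single leukocyte marker listed, PTPRC, was also highest in SK-N-AS, and its part in these levels was not tested.

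Between the MYCN-amplified and MYCN-non-amplified groups, 1 of the 236 loci passed the test. With limma on log2(FPKM + 0.5), calls required a log2 fold change beyond 1 in either direction together with an adjusted p (Benjamini-Hochberg, over all 12870 loci) below 0.05. No member was called higher (background 0.14% of all tested loci) and 1 was called lower (0.424% of the members, background 0.365%). At an unadjusted p below 0.05, 5 members were higher and 24 lower, which is 2.12% and 10.2% of the members beside 5.48% and 9.46% of all loci. Limma alone was run, since the table does not hold counts. The median log2 fold change was -0.14 over the members (SD 0.81, n = 236 loci) and -0.09 over all tested loci (SD 0.95, n = 12870 loci).

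The called locus belonged to the energy, redox and intermediary metabolism list, of which 25 loci were tested, while the other lists had 0 called loci and the PADI cluster, with 1 member, had none tested. It was FUCA1 (chr1:24171566-24194784), which encodes a lysosomal enzyme that removes fucose from glycoproteins. It had 0.103 FPKM in BE(2)-C, 0.278 in CHP134, 0.0596 in Kelly and 0.292 in SK-N-DZ, against 5.15 in SY5Y and 3.95 in SK-N-AS. All 4 MYCN-amplified lines were thus below both MYCN-non-amplified lines. FUCA1 reached the minimum of 1 FPKM only in SY5Y and SK-N-AS, the lines where it is high. The filter therefore was not independent of the contrast at this locus, and the call gives no separate support. The log2 fold change was -2.89 ± 0.44 (SE) on the log2(FPKM + 0.5) scale, with an adjusted p of 0.0492 by limma. The call was lost when any single line was left out, and under 7 of the other settings. Where a MYCN-amplified line was left out, the adjusted p was 0.0648 to 0.133, and without SK-N-AS or SY5Y the locus no longer passed the minimum.

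**Figure D5:**
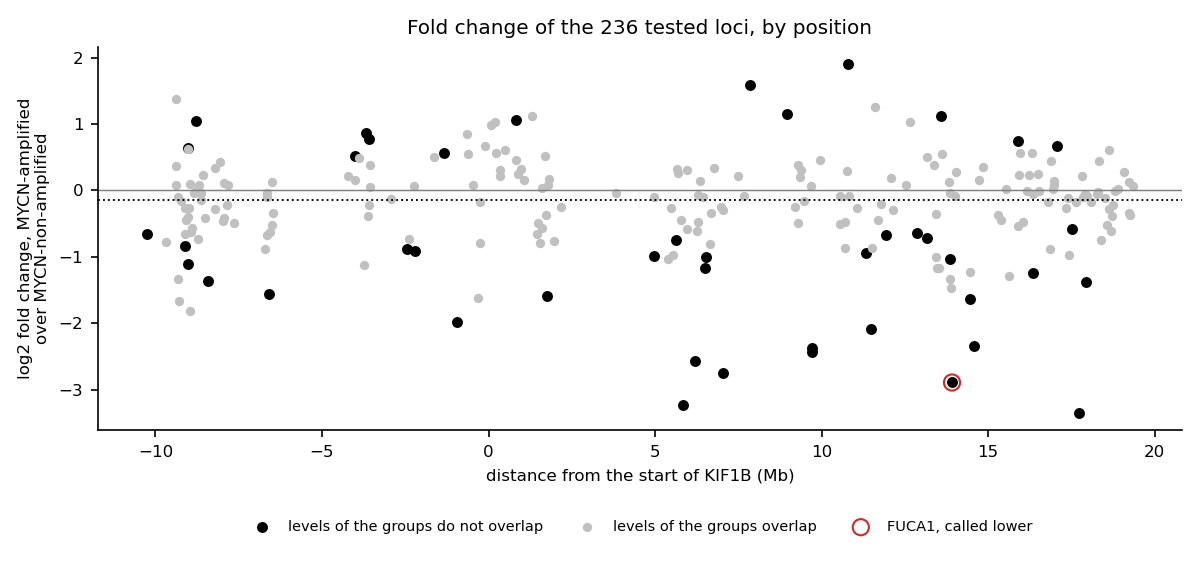
Log2 fold change of MYCN-amplified over MYCN-non-amplified lines (y axis) for the 236 tested loci, by distance from the start of KIF1B in Mb (x axis). Black points are the 44 loci whose levels do not overlap between the groups, the red ring is FUCA1 at -2.89, and the dotted line is the median of -0.14.

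The levels of the groups did not overlap at 44 of the 236 loci (18.6%, background 26.9%). The 4 MYCN-amplified lines were all higher at 13 (5.51%, background 10.5%) and all lower at 31 (13.1%, background 16.4%). No test was made of these shares. Some of the 44 loci met the minimum only through the group where they are high, so that the filter was not independent of the contrast there. Beside those named below, they include HSPG2, STPG1, THEMIS2 and TMEM52 among the lower and RNF207 and MASP2 among the higher. These were named after their values were seen. The same minimum was applied to the background. Of the candidate list, 5 of 22 tested loci were lower without overlap and 0 higher: both NBL1 rows, EPHB2, LUZP1 and ERRFI1, with fold changes of -2.43, -2.37, -0.64, -0.72 and -0.91 on the log2 scale, none of them called. Of the matrix and vascular list, 7 of 11 tested loci were lower without overlap, with a median log2 fold change of -1.67, and 0 were called. These 7 loci include both NBL1 rows, which may hold the same reads, and HSPG2, which met the minimum only through the MYCN-non-amplified lines.

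Below FUCA1, the loci with the smallest p among those lower without overlap were RCAN3, MFAP2, H6PD, NBPF2P, FBLIM1, NECAP2 and NBL1, with log2 fold changes between -3.23 and -1.16 and limma adjusted p of 0.112 to 0.216. RCAN3, an inhibitor of calcineurin, had at most 0.00897 FPKM in the MYCN-amplified lines, with CHP134 listed at 0, against 2.55 FPKM in SY5Y and 1.64 FPKM in SK-N-AS. H6PD, a dehydrogenase of glucose 6-phosphate in the endoplasmic reticulum, had 0.0519 to 0.309 FPKM in the MYCN-amplified lines, against 2.78 FPKM in SY5Y and 1.67 FPKM in SK-N-AS. FBLIM1, an adaptor of filamin at cell junctions, had 0.144 to 4.86 FPKM in the MYCN-amplified lines, against 10.2 FPKM in SY5Y and 22.2 FPKM in SK-N-AS. None of these passed the test. RCAN3, H6PD and NBPF2P, like FUCA1, reached 1 FPKM only in SY5Y and SK-N-AS, and so met the minimum through the group where they are high.

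On the other side, the 8 loci with the smallest p among those higher without overlap were SH2D5, a row merging ALDH4A1 with IFFO2 and TAS1R2, E2F2, SSU72, KLHL21, NOL9, ACTL8 and ENO1, with log2 fold changes of 0.57 to 1.90 and limma adjusted p of 0.284 to 0.429. ENO1, which encodes the glycolytic enzyme enolase, had 737 FPKM in BE(2)-C, 635 in CHP134, 989 in Kelly and 647 in SK-N-DZ, against 598 in SY5Y and 414 in SK-N-AS. E2F2, a transcription factor of the G1 to S transition, had 10.6, 25.5, 16.5 and 11.6 FPKM in these MYCN-amplified lines, against 9.59 FPKM in SY5Y and 4.53 FPKM in SK-N-AS. NOL9, a kinase of ribosomal RNA processing, had 6.28 to 14.1 FPKM in the MYCN-amplified lines, against 5.42 FPKM in SY5Y and 3.92 FPKM in SK-N-AS. The SSU72 row named here is the lower of 2 with the same listed span, at 0.993 to 1.86 FPKM in the MYCN-amplified lines, against 0.493 FPKM in SY5Y and 0.339 FPKM in SK-N-AS. The other SSU72 row had 18.5 to 44.97 FPKM in the MYCN-amplified lines, against 28.0 and 28.6 FPKM in SY5Y and SK-N-AS, and overlapped. SH2D5, ACTL8 and the lower SSU72 row reached 1 FPKM only in MYCN-amplified lines, and so met the minimum through the group where they are high.

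Among loci with 1 gene name and a promoter in the table, the median log2 fold change was 0.17 over the 18 whose promoter held the E-box (quartiles -0.64 and 0.52) and -0.16 over the 149 without it (quartiles -0.67 and 0.16). The quartile ranges overlap. These medians are a description and were not tested.

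No member was present in 5 lines and near 0 in the other, taken as at least 5 FPKM in 5 lines and below 0.5 in the remaining one (0 of 276, background 0.37% of 16223 named loci). The nearest case was IFI6, which had 0.0616 FPKM in SK-N-DZ and at least 4.65 FPKM in the other lines. In CHP134, NIPAL3 was listed at 0 and its overlapping neighbour STPG1 had 0.00189 FPKM, while the other 5 lines had 1.01 to 3.86 FPKM of NIPAL3 and 0.469 to 2.26 FPKM of STPG1. Both rows share the span chr1:24620476-24801328, next to RCAN3, and were chosen after their values were seen. They stand in the stretch where 91 of 163 loci were highest in CHP134.

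The 40 members not tested fell short of the minimum. Each reached 1 FPKM in at most 1 line. UTS2, TNFRSF9, DHRS3 and PADI3 were above 1 FPKM in SK-N-AS alone, at 6.11, 2.77, 3.97 and 1.41 FPKM, with at most 0.481 FPKM in any other line, and UTS2 and DHRS3 were chosen after their values were seen. MTND1P23, a pseudogene copied from a mitochondrial gene and therefore uncertain, had 26.5 FPKM in SK-N-DZ and was listed at 0 in the other lines, and was also chosen after its values were seen. The list of microRNA and small RNA genes had 2 tested loci, among them the RNU11 row, with 121 FPKM in BE(2)-C, 255 in CHP134, 689 in Kelly and 201 in SK-N-DZ, against 298 in SY5Y and 372 in SK-N-AS.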

How the data were processed

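RNA sequencing values of 6 neuroblastoma cell lines, 1 library each, were analysed. By the study's methods, the authors aligned reads to hg19 with STAR, counted them on Gencode annotation and tested them with edgeR. The deposited table instead holds merged loci with values read as FPKM, a unit that is not named, made by the authors in a step that the sources used here do not describe. In the table, 1 line was emptied for this work. The cell line came from the labels and the MYCN status of each line from the methods.

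The test used limma 3.58.1 (R 4.3.3; eBayes with a trend) and took log2(FPKM + 0.5) of every named locus that reached 1 FPKM in 2 or more lines, with p-values adjusted over all 12870 loci. The script was tested on simulated data. Per-line differences, bins and shares were computed with Python 3.11.15 (pandas 2.3.3), and figures drawn with matplotlib 3.10.9. Biotypes came from GENCODE 44 on hg19, which with RefSeq synonyms matched 298 of 326 gene names, 264 of them protein-coding. The depth is unknown, so that no counting interval can be given.

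The members and 13 gene lists were chosen with earlier results of these data known. The genes named are the members that passed the test, the 8 with the smallest p in each direction without overlap, the candidate list, up to 4 of each other list with the highest mean level, members near 0 in 1 line, and per line the 3 farthest below and above the others. The division at 10 Mb, the border between UBE4B and KIF1B with its sets of 20 loci, the genome-wide ranks, the neighbour pairs, the rows set aside and the parts of chromosome 1 were chosen after the data were seen. Alternatives varied the pseudocount, minimum, scaling, gene names, variance model, threshold, bins and lines. Results for a few genes are not reported here.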

Additional observations from a re-analysis of the deposited data

Results flagged for a closer look

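Of 86 named loci and 6 bins, 8 loci had a MYCN-amplified line that stood far from the other 3, with a gap to the nearest line above 0.829 of the range of the 4 log2(FPKM + 0.5) values. Chance flags about 1 in 20 such groups where they are not picked by their values. Some of the 86 loci, KIF17 and TCEA3 among them, were named because a line stood far from the others. The rate therefore does not apply to this set, and the number flagged is a description only. CHP134 stood apart at NECAP2 (gap 0.88 of the range), with 26.1 FPKM against 14.5 to 15.6 FPKM in the other MYCN-amplified lines. It stood apart at HMGN2 (0.862), with 157 FPKM against 67.4 to 75.8 FPKM, and at KIF17 (0.961), with 5.25 FPKM against 0.297 to 0.362 FPKM.

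Kelly stood apart at TCEA3 (0.923), with 11.1 FPKM against 0.0911 to 0.242 FPKM, and at MIR34A (0.955), with 0.797 FPKM against at most 0.0220 FPKM. BE(2)-C stood apart at NBPF2P (0.901), with 0.459 FPKM against 0.0180 to 0.0507 FPKM, and at TNFRSF9 (0.847), with 0.0652 FPKM against at most 0.00945 FPKM. At PADI3 (1.0) CHP134 had 0.00428 FPKM and the other 3 lines were listed at 0. The last 2 gaps lie at levels near 0.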

How the results depend on the processing

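Of the named loci, 237 fold changes under the alternatives kept their direction and their side of the threshold, and the others were those of FUCA1 (10 no longer called) and RCAN3 (2 newly called). The count of members called lower was 0 at a smaller pseudocount, at a minimum of 5 FPKM, with quantile normalization, with median-ratio size factors, with the unnamed loci, with trend and robust fitting, with the DMEM lines alone, and when any 1 line was left out (lowest and highest 0), and 2 with no minimum or no trend. The count called higher was 0 throughout. The causes of these moves were not tested, apart from the minimum of 5 FPKM, which FUCA1 does not reach in 2 lines.

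The sides of 10 Mb and their alternatives were chosen after seeing the data. The division in CHP134 kept its direction under all settings run for it. Its median was -0.32 in the first 10 Mb at a pseudocount of 2, and between -0.57 and -0.46 there and between 0.65 and 0.88 beyond when another line was left out. Over all members it was 0.62 at a minimum of 5 FPKM, and 0.32 to 0.57 with a line left out. BE(2)-C beyond 10 Mb was at -0.41 at a pseudocount of 2, -0.42 with quantile normalization, -0.42 with size factors, and -0.65 to -0.46 with a line left out, and its bin of 25 to 30 Mb was at -0.41 at a pseudocount of 2. In the first 10 Mb BE(2)-C was at -0.0800 to 0.18 with a line left out, turning below 0 without CHP134, and at 0.18 and 0.20 with quantile normalization and size factors. Over all members BE(2)-C was at -0.51 to -0.40 with a line left out. Kelly was at 0.28 in the first 10 Mb at a pseudocount of 2, and at -0.0594 to 0.20 beyond with a line left out, turning below 0 without BE(2)-C (-0.0594) or SK-N-DZ (-0.0232). SY5Y beyond 10 Mb was at -0.0299 to 0.21 with a line left out, turning below 0 without SK-N-DZ, and its highest bin was at 1.003 with 3 Mb bins.

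Scaling also moved SK-N-DZ and SK-N-AS. Over all members SK-N-DZ was at -0.12 with quantile normalization and -0.14 with size factors. In the first 10 Mb it turned to 0.0404 and 0.0102, and beyond, it was at -0.17 and -0.23 (-0.56 to -0.33 with a line left out). With quantile normalization its bins of 15 to 20 Mb and 25 to 30 Mb were at -0.17 and -0.10, and it was the lowest line at 16.1% of the loci, against 10.2% for SY5Y. SK-N-AS turned to -0.0227 over all members with quantile normalization, was at -0.70 in its bin of 5 to 10 Mb and at 0.0282 beyond 10 Mb, where leaving out a line gave 0.0357 to 0.28.

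Counts at or beyond 1 fell at a pseudocount of 2, to 19 low and 4 high loci in BE(2)-C, 10 low in CHP134, 12 low and 13 high in Kelly, 16 low and 5 high in SK-N-DZ, 7 low and 23 high in SK-N-AS, and 2 low and 15 high in SY5Y. At a minimum of 5 FPKM they were 3 high in BE(2)-C, 13 low in CHP134, 11 low in Kelly, 5 high in SK-N-DZ, 10 low and 20 high in SK-N-AS, and 3 low and 12 high in SY5Y, with fewer loci tested. At the smaller pseudocount there were 30 low in Kelly and 11 low in SY5Y, and with quantile normalization 13 low in SY5Y. A looser rule for loci near 0 in 1 line (at least 2 FPKM in 5 lines, below 0.2 in the other) gave 1 member, IFI6. No paired analysis was possible, because the groups hold different cell lines with 1 library each. The depth is unknown and limits the low loci by an amount that cannot be given.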
